A study of Mus musculus with 12 samples.

Results

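The genes described here are 34 genes of programmed cell death, chosen by name from the 54532 genes in the deposited tables. All 34 were found in both tables and none had a repeated name. They cover the routes of apoptosis (10 genes of the BCL-2 family, 6 of the mitochondrial route and its caspases, and 6 of the death receptor route), necroptosis (3 genes) and pyroptosis (5 inflammasome genes and 4 gasdermins). Small intestine of C57BL/6J mice gave 12 RNA libraries, which fall into 4 groups of 3. These were Piezo1 knockout tissue in which necrotizing enterocolitis had been induced (CKO NEC), floxed tissue with induced NEC (flox NEC), Piezo1 knockout tissue without NEC (CKO control) and floxed tissue without NEC (flox control). NEC is an inflammatory necrosis of the newborn bowel. In CKO mice Piezo1, a mechanically gated cation channel, is labelled as knocked out in intestinal epithelial cells only, so the other cells of the tissue keep the gene. Flox mice carry the floxed gene. Neither the Cre line nor the NEC protocol nor the age is given in the sources used here. The labels do not tie libraries to separate animals, so p-values measure the spread between these libraries, which may not be the spread between animals.

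As background, apoptosis starts either at the mitochondrion, where BAX and BAK open the outer membrane unless BCL-2 proteins hold them back, or at death receptors, where FADD recruits caspase-8. Necroptosis is a lytic death run by RIPK1, RIPK3 and the pore-forming MLKL, and caspase-8 restrains it by cleaving the kinases. Pyroptosis is a lytic death in which inflammasomes activate caspase-1, and caspase-1 or caspase-4 cuts gasdermin D into a pore. The intestinal epithelium, which is shed and renewed all the time, uses all of these routes.

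Depth was 13057724 to 16821130 reads per library. Levels are FPKM, read numbers set relative to gene length and library size, put on 1 scale shared by all 12 libraries, so they can be compared between genes and between groups. Changes are differences of log2(FPKM + 1) from limma with their standard errors, and a gene is called to rise or fall at an adjusted p under 0.05 over all genes tested. Piezo1 itself stood at 4.88, 5.04 and 2.99 FPKM in CKO NEC tissue against 6.62, 6.52 and 6.12 FPKM in flox NEC tissue (log2 change of -0.51 ± 0.17 SE, adjusted p = 0.847). Without NEC, CKO libraries had 1.72, 1.04 and 0.934 FPKM against 1.39, 1.45 and 1.09 FPKM in flox (-0.06 ± 0.19 SE, adjusted p = 0.846). The CKO libraries were thus lower in 3 of 3 in NEC tissue, and the genotypes overlapped in control tissue. The 7 epithelial markers include Epcam and Vil1. Their sum was 2074 to 2714 FPKM in CKO NEC tissue and 2053 to 2350 FPKM in flox NEC tissue. It was 2895 to 3438 FPKM in CKO control tissue, above all other libraries, and 2229 to 2842 FPKM in flox control tissue. Epcam averaged 629.8 and 533.9 FPKM in CKO and flox NEC tissue, against 1375 and 869.6 FPKM in control tissue. Krt20 went the other way, at 80.9 and 77.6 FPKM against 36.9 and 26.8 FPKM. So did Krt8 (830.5 and 806.9 FPKM against 624.8 and 610.9 FPKM) and Cdh1 (162.8 and 163.4 FPKM against 151.4 and 91.5 FPKM). In each genotype 3 of the 7 epithelial markers had a positive estimate for NEC against control and 4 a negative one. Of 9 immune cell markers, Itgam, S100a8, S100a9 and Cd3e were under 1 FPKM in every library.

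Among the 34 genes the level order was led in CKO NEC tissue by the anti-apoptotic Mcl1 (70.8 ± 5.53 FPKM), the TNF receptor Tnfrsf1a (65.4 ± 0.649 FPKM) and Casp1 (45.6 ± 7.91 FPKM), all SD with n = 3. Flox NEC tissue had the same leading 3, at 74.5 ± 5.96, 63.4 ± 4.73 and 36.4 ± 0.726 FPKM. In control tissue Casp1 and its substrate Gsdmd stood first, with Casp1 at 87.7 to 112.5 FPKM and Gsdmd at 93.4 ± 37.0 FPKM in CKO, and both at 107.7 ± 21.1 and 98.6 ± 18.1 FPKM in flox. Neighbours in this order often lay within 1 SD of each other, as Casp1 and Gsdmd did in both control groups. At the low end, Tnfrsf10b, Diablo and Bcl2 had group means of 0.809 to 1.81 FPKM.

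**Figure D1:**
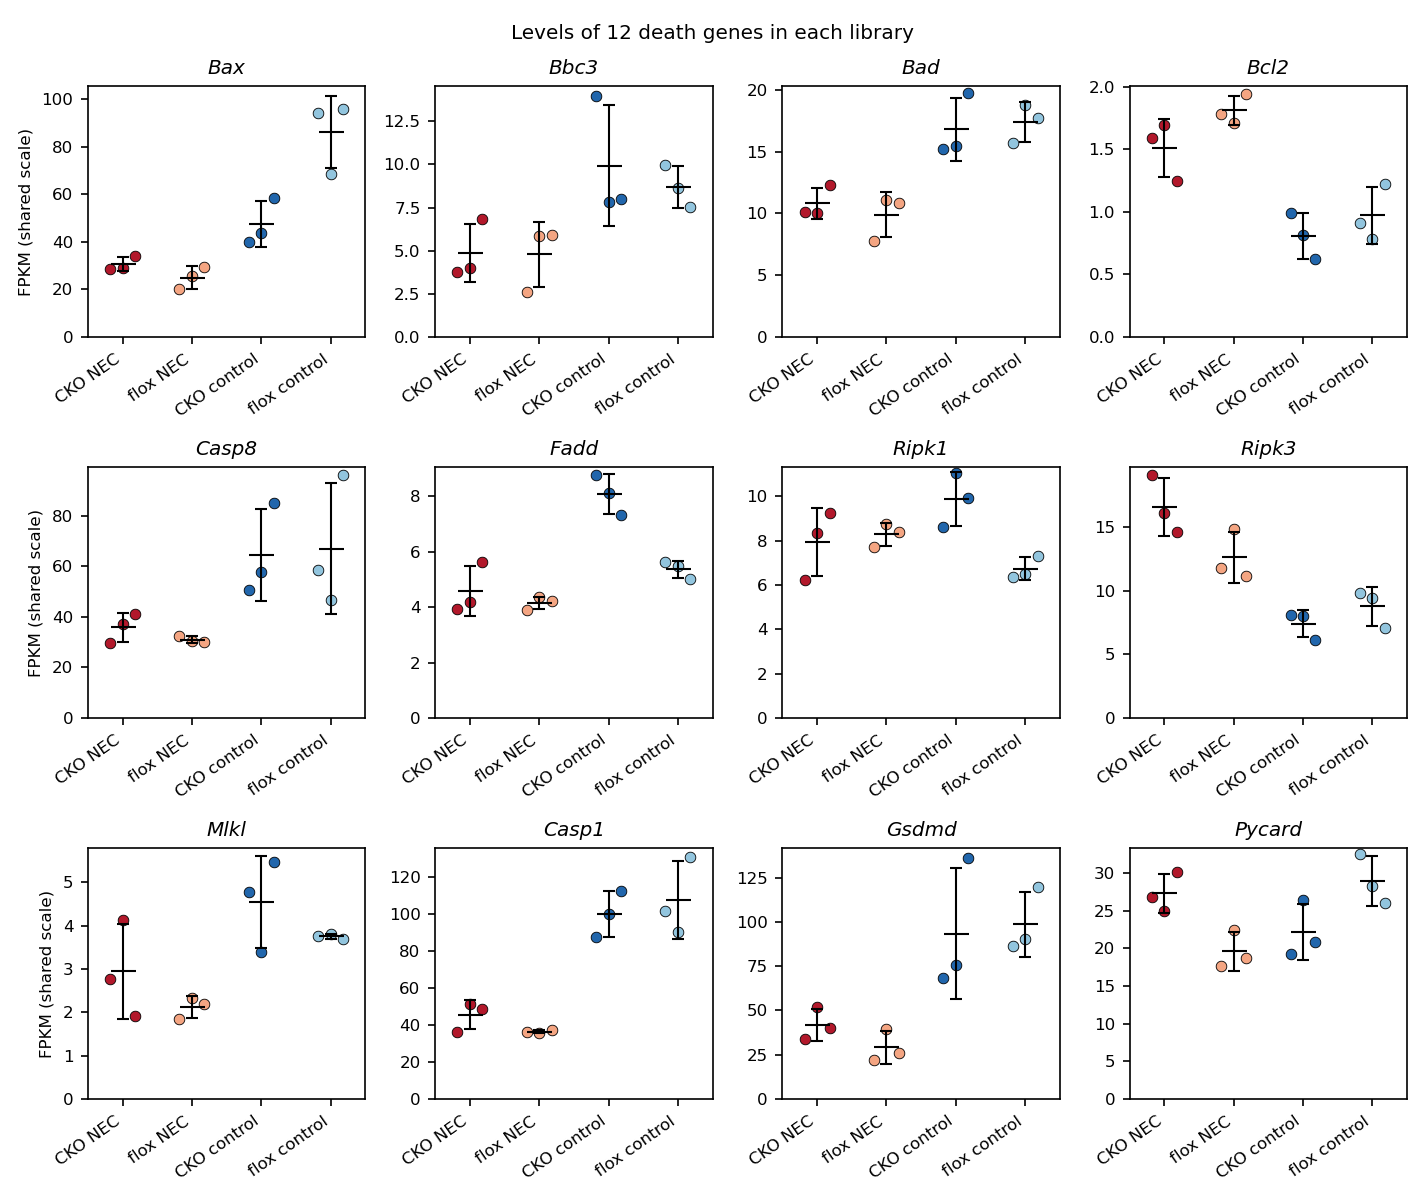
Levels of 12 death genes in FPKM on the shared scale (vertical axis, from 0) in the 4 groups. Points are libraries, the long bar is the mean and the whiskers are 1 SD (n = 3). Casp1 lies at 35.99 to 51.2 FPKM in NEC libraries and at 87.7 to 131.1 FPKM in control libraries, and Bax is highest in flox control tissue.

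The first question was how the death genes differed between NEC and control tissue in each genotype. In CKO tissue 14 of 34 members were called, 2 higher and 12 lower, and in flox tissue 18 of 34 were called, 7 higher and 11 lower. Over all 14609 genes tested, 43.1% were called in CKO and 53.6% in flox. The members' shares of 41.2% and 52.9% were near these, so the number of calls is not a result about the death genes. By direction, 20.2% of all genes rose and 23% fell in CKO, and 27.2% rose and 26.5% fell in flox. The members' median change was -0.27 in CKO and -0.22 in flox, beside -0.01 and 0.001 over all genes tested. The members called in both genotypes were 10, namely Bax, Bak1, Bad, Bbc3, Fadd, Casp8, Casp1 and Gsdmd, which fell, and Bcl2 and Ripk3, which rose. The NEC and control libraries did not overlap for 4 members that were higher and 13 that were lower in CKO NEC tissue, where 51.8% of all genes did not overlap (24.5% higher, 27.3% lower). In flox they did not for 8 higher and 13 lower members, beside 63.1% of all genes (32.2% higher, 30.9% lower). The means compared come from different libraries in the 2 comparisons. Both were taken from the same fit of all 12 libraries, with a shared estimate of spread, so they are not independent tests.

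Condition and deposited table are the same split and cannot be told apart, and the count by direction moved with the scaling. The CKO split of 2 higher and 12 lower became 6 and 6 on the deposited values, 2 and 13 with equal library medians, 4 and 9 after quantile normalization and 6 and 3 with scaling to total reads without mitochondrially encoded genes. The flox split of 7 and 11 became 10 and 8, 5 and 12, 8 and 12, and 10 and 9 in the same order. The median of all genes moved to 0.10 in CKO and 0.13 in flox on the deposited values, and to 0.22 and 0.11 with the scaling without mitochondrial genes. Bcl2, Fadd, Ripk3, Casp1 and Gsdmd were called under each of the 5 scalings in CKO. In flox 13 members were: Bax, Bak1, Bcl2, Bad, Bcl2l11, Apaf1, Casp8, Ripk3, Aim2, Pycard, Casp1, Casp4 and Gsdmd. No called member changed sign under any scaling. Without CKO NEC replicate 1 the CKO count was 7, and without CKO control replicate 3 it was 9.

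Other cell markers also differed between NEC and control libraries. The 6 suckling enterocyte markers, Lct and Fcgrt among them, summed to 156.2 to 238.9 FPKM in CKO NEC and 144.7 to 184.8 FPKM in flox NEC tissue, against 1908 to 2662 FPKM in CKO control and 946.6 to 1868 FPKM in flox control tissue. The 4 mature enterocyte markers, which include Sis, summed to 212.8 to 332.1 FPKM in CKO NEC and 263.1 to 415.6 FPKM in flox NEC tissue, against 64.1 to 81.4 FPKM in CKO control and 42.2 to 60.3 FPKM in flox control tissue. Both enterocyte sums separated every NEC library from every control library, though not every marker did. Cubn, of the suckling list, averaged 45.3 FPKM in flox NEC and 47.55 FPKM in flox control tissue. The other 5 suckling markers were called lower in flox, and all 6 were in CKO. Treh, of the mature list, averaged 1.52 and 1.11 FPKM in CKO and flox NEC tissue, against 1.27 and 1.115 FPKM in control tissue. Arg2 was under 1 FPKM in every library, and the other 2 mature markers were called higher in both genotypes. The 5 fibroblast and matrix markers summed to 265.8 to 441.3 and 398.9 to 530.6 FPKM in CKO and flox NEC tissue, against 52.3 to 152.6 and 132.4 to 266.1 FPKM in CKO and flox control tissue. The immune sum was 18.6 to 29.5 and 26.4 to 30.5 FPKM in CKO and flox NEC tissue. In CKO and flox control tissue it was 79.1 to 94.6 and 80.7 to 101.8 FPKM. Csf1r, its most abundant member, averaged 17.9 and 20.6 FPKM in CKO and flox NEC tissue, against 68.1 and 68.6 FPKM in control tissue. Adgre1 went the other way, at 1.02 and 1.11 FPKM against 0.659 and 0.677 FPKM. Itgam and S100a9, under 1 FPKM throughout, also had higher means in NEC tissue. In each genotype 4 of the 5 immune markers tested had a negative estimate and 1, Adgre1, a positive one. Markers of gut position, vessels and the mitochondrial share of reads differed too. The 2 ileum markers summed to 153.6 to 282.2 and 186.5 to 339.6 FPKM in CKO and flox NEC tissue, against 17.3 to 59.97 and 28.5 to 497.7 FPKM in CKO and flox control tissue. Flox control replicate 3 was the only control library that was not under every NEC library in the ileum sum. The 2 markers of the upper small intestine, Gata4 and Fabp1, summed to 2.60 to 589.7 FPKM in CKO NEC and 17.8 to 146.4 FPKM in flox NEC tissue. Their sum was 119.6 to 338.3 FPKM in CKO control and 1.43 to 790.7 FPKM in flox control tissue. Both had negative estimates for NEC against control in each genotype, and neither was called. The 3 endothelial markers summed to 25.6 to 30.6 and 30.5 to 35.8 FPKM in CKO and flox NEC tissue, against 11.9 to 16.8 and 11.3 to 20.6 FPKM in CKO and flox control tissue. Mitochondrially encoded genes took 3.47% to 4.43% and 3.804% to 4.52% of reads in CKO and flox NEC libraries, against 5.11% to 6.76% and 11.1% to 14.3% in CKO and flox control libraries. The part of these differences in the death gene results was not tested, and in whole tissue fewer cells of a type and less RNA per cell cannot be told apart.

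**Figure D2:**
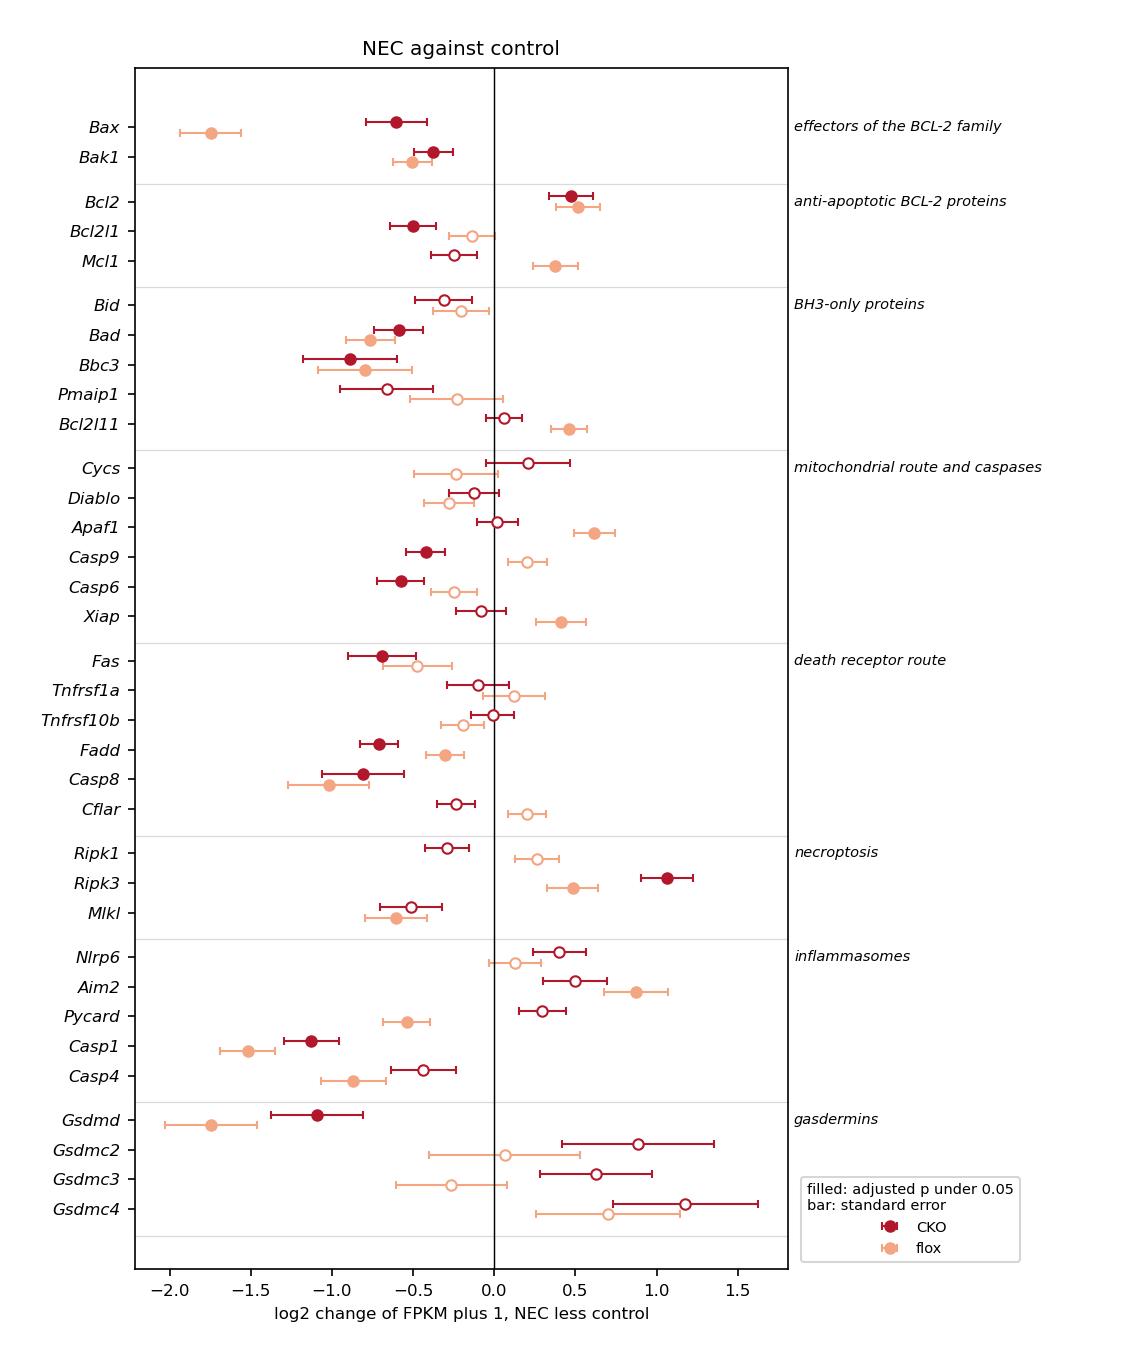
Log2 change of FPKM + 1 in NEC tissue less control tissue (horizontal axis) for the 34 genes by route, with CKO above flox for each gene. Points are limma estimates, bars are standard errors, and filled points have an adjusted p under 0.05 (14 in CKO, 18 in flox). Bax, Casp1 and Gsdmd lie farthest to the left in flox, and Ripk3 lies farthest to the right among the filled points of CKO.

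Both pore-forming effectors of the mitochondrial route stood lower in NEC tissue. Bax, which inserts into the mitochondrial membrane (chromosome 7, 45461697 to 45466898, minus strand, GRCm38), had 28.5, 29.1 and 33.9 FPKM in CKO NEC tissue against 40.02, 43.8 and 58.3 FPKM in CKO control tissue. In flox it had 19.98, 25.8 and 29.3 FPKM in NEC tissue against 94.1, 68.6 and 95.8 FPKM in control tissue. No NEC library reached the lowest control library of its genotype, and the flox control libraries stood above all others. Bax fell by 0.60 ± 0.19 SE in CKO (adjusted p = 0.0231) and by 1.75 ± 0.19 SE in flox (adjusted p = 3.13e-05). Bak1, the second effector, averaged 39.2 ± 3.10 FPKM in CKO NEC tissue against 51.2 ± 5.52 FPKM in CKO control tissue, and 31.4 ± 2.86 FPKM in flox NEC tissue against 45.0 ± 3.55 FPKM in flox control tissue. It fell by 0.38 ± 0.12 SE (adjusted p = 0.0263) in CKO and by 0.51 ± 0.12 SE (adjusted p = 0.00433) in flox. The flox calls on both genes held under every alternative tried. In CKO the call on Bax was lost on the deposited values (-0.46), with quantile normalization (-0.29), with the scaling without mitochondrial genes (-0.32), and without CKO NEC replicate 1 (-0.56), CKO NEC replicate 2 (-0.57) or CKO control replicate 3 (-0.45). The call on Bak1 was lost with the same 3 scalings (-0.23, -0.04 and -0.09), in a fit of the 6 CKO libraries alone, and without CKO NEC replicate 1 (-0.31), CKO control replicate 1 (-0.37) or CKO control replicate 3 (-0.30).

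The ratio of these 2 genes within a library does not depend on the scale factor of that library. Bax over Bak1 was 0.800, 0.711 and 0.828 in CKO NEC libraries, 0.708, 0.764 and 0.906 in flox NEC libraries, 0.775, 0.961 and 1.03 in CKO control libraries, and 2.21, 1.58 and 1.95 in flox control libraries. The 3 flox control libraries thus stood above the other 9, which overlapped. This ratio was chosen after its values were seen and is given without a test.

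The anti-apoptotic genes, whose products bind BAX and BAK, differed in direction. Bcl2, the founding member, had 1.59, 1.70 and 1.25 FPKM in CKO NEC tissue against 0.990, 0.814 and 0.622 FPKM in CKO control tissue. Flox NEC libraries had 1.78, 1.71 and 1.94 FPKM, against 0.914, 0.781 and 1.23 FPKM in flox control tissue. Every NEC library stood above every control library, at 81 to 274 reads a library. Bcl2 rose by 0.47 ± 0.14 SE in CKO (adjusted p = 0.0169) and by 0.52 ± 0.14 SE in flox (adjusted p = 0.00806). The CKO call was lost without CKO NEC replicate 1 (0.45), CKO NEC replicate 2 (0.42) or CKO control replicate 3 (0.40). Bcl2l1, the gene of BCL-XL, averaged 18.9 ± 1.82 FPKM in CKO NEC tissue against 27.1 ± 2.43 FPKM in CKO control tissue, and 18.8 ± 2.72 FPKM in flox NEC tissue against 20.8 ± 3.12 FPKM in flox control tissue. It fell by 0.50 ± 0.14 SE in CKO (adjusted p = 0.0143), and the flox change was -0.14 ± 0.14 SE (adjusted p = 0.431). The CKO call on Bcl2l1 was lost with the 3 scalings that ended the one on Bax (-0.36, -0.27 and -0.22) and without CKO NEC replicate 2 (-0.45) or CKO control replicate 3 (-0.43).

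Mcl1, a short-lived guard of epithelial survival, averaged 70.8 ± 5.53 FPKM in CKO NEC tissue against 84.4 ± 8.02 FPKM in CKO control tissue, and 74.5 ± 5.96 FPKM in flox NEC tissue against 57.6 ± 10.01 FPKM in flox control tissue. It rose by 0.38 ± 0.14 SE in flox (adjusted p = 0.0406), and its change in CKO was -0.25 ± 0.14 SE (adjusted p = 0.174). The flox call was lost in 9 of 24 alternatives (adjusted p of up to 0.160). These were no filter, equal library medians (0.30), a fit of the 6 flox libraries alone, and fits without flox NEC replicate 1 (0.41), 2 (0.31) or 3 (0.41), CKO control replicate 2 (0.38), or flox control replicate 1 (0.26) or 2 (0.37). Summed FPKM of Bcl2, Bcl2l1 and Mcl1 over that of Bax and Bak1 was 1.31 ± 0.0632 in CKO NEC, 1.70 ± 0.154 in flox NEC, 1.15 ± 0.0796 in CKO control and 0.610 ± 0.112 in flox control libraries (SD, n = 3). The highest flox control ratio was 0.703, and the lowest in any other group was 1.07, a comparison likewise chosen after the values were seen.

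BH3-only proteins trigger the route by binding their BCL-2 relatives. Bbc3, the gene of PUMA and a target of p53, had 3.77, 4.01 and 6.81 FPKM in CKO NEC tissue against 13.98, 7.81 and 8.01 FPKM in CKO control tissue. The flox NEC libraries stood at 2.63, 5.86 and 5.92 FPKM, against 9.95, 8.66 and 7.51 FPKM in flox control tissue. All NEC libraries lay under all control libraries. Bbc3 fell by 0.89 ± 0.29 SE in CKO (adjusted p = 0.0282) and by 0.80 ± 0.29 SE in flox (adjusted p = 0.0366). Both calls were lost on the deposited values (-0.77 in CKO, -0.67 in flox), with no filter and with the scaling without mitochondrial genes (-0.64 and -0.70). The CKO call was also lost without CKO NEC replicate 1 (-0.76), CKO NEC replicate 2 (-0.79) or CKO control replicate 1 (-0.64). The flox call was lost without flox NEC replicate 1 (-0.49), flox control replicate 1 (-0.71) or flox control replicate 2 (-0.80).

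Bad, which binds BCL-2 and BCL-XL when it is not phosphorylated, had 10.1, 10.1 and 12.3 FPKM in CKO NEC tissue against 15.2, 15.5 and 19.7 FPKM in CKO control tissue. In flox the NEC libraries had 7.78, 11.1 and 10.9 FPKM, against 15.7, 18.8 and 17.7 FPKM in flox control tissue. Again no NEC library reached a control library. Bad fell by 0.59 ± 0.15 SE in CKO (adjusted p = 0.00930) and by 0.76 ± 0.15 SE in flox (adjusted p = 0.00145), and of all alternatives only the scaling without mitochondrial genes ended the CKO call (-0.31). Bad overlaps Gpr137 on the opposite strand over 590 bases, and with the strand setting of the counts unknown, reads in that stretch cannot be told apart. Bcl2l11, the gene of BIM, averaged 3.21 ± 0.464 FPKM in CKO NEC tissue against 3.04 ± 0.370 FPKM in CKO control tissue, and 2.98 ± 0.130 FPKM in flox NEC tissue against 1.89 ± 0.138 FPKM in flox control tissue. It rose by 0.46 ± 0.11 SE in flox (adjusted p = 0.00478), and the CKO change was 0.06 ± 0.11 SE (adjusted p = 0.700). Bid, cut by caspase-8 to link both apoptotic routes, and Pmaip1, the gene of NOXA, were called in neither genotype, with changes of -0.31 and -0.66 in CKO and -0.21 and -0.23 in flox.

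Further along the mitochondrial route no member was called in both genotypes. Apaf1, the scaffold of the apoptosome, averaged 9.32 ± 1.51 FPKM in CKO NEC tissue against 9.15 ± 1.13 FPKM in CKO control tissue, and 9.56 ± 0.615 FPKM in flox NEC tissue against 5.89 ± 0.545 FPKM in flox control tissue. It rose by 0.62 ± 0.13 SE in flox (adjusted p = 0.00192) and changed by 0.02 ± 0.13 SE in CKO (adjusted p = 0.913). Casp9, the initiator that the apoptosome activates, averaged 7.29 ± 1.19 FPKM in CKO NEC tissue against 10.1 ± 1.17 FPKM in CKO control tissue, and 6.90 ± 0.350 FPKM in flox NEC tissue against 5.86 ± 0.346 FPKM in flox control tissue. It fell by 0.42 ± 0.12 SE in CKO (adjusted p = 0.0152), with a flox change of 0.20 ± 0.12 SE (adjusted p = 0.172). The CKO call on Casp9 was lost on the deposited values (-0.29), with the scaling without mitochondrial genes (-0.16), in a fit of the CKO libraries alone, and without CKO NEC replicate 1 (-0.32) or CKO control replicate 2 (-0.34).

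Casp6, an effector caspase, averaged 2.99 ± 0.562 FPKM in CKO NEC tissue against 4.92 ± 0.489 FPKM in CKO control tissue and fell by 0.58 ± 0.14 SE (adjusted p = 0.00785), a call that only the scaling without mitochondrial genes ended (-0.34). In flox it averaged 2.97 ± 0.154 FPKM in NEC tissue against 3.77 ± 0.839 FPKM in control tissue (-0.25 ± 0.14 SE, adjusted p = 0.163). Xiap, an inhibitor of caspases, averaged 14.2 ± 1.08 FPKM in CKO NEC tissue against 15.2 ± 2.44 FPKM in CKO control tissue, and 16.3 ± 1.39 FPKM in flox NEC tissue against 12.2 ± 2.67 FPKM in flox control tissue. It rose in flox by 0.41 ± 0.15 SE (adjusted p = 0.0412) although the flox libraries overlapped, and the call was lost in 9 of 24 alternatives (adjusted p of up to 0.145). These were no filter, equal library medians (0.34), a fit of the flox libraries alone, and fits without CKO NEC replicate 2 (0.41), flox NEC replicate 1 (0.37) or 2 (0.38), CKO control replicate 2 (0.41), or flox control replicate 1 (0.32) or 2 (0.35). Cycs, the gene of cytochrome c, and Diablo, the gene of SMAC, were called in neither genotype, with changes of 0.21 and -0.12 in CKO and -0.24 and -0.28 in flox. Diablo shares its locus with Gm49027 and Gm15751, so its low values of 0.603 to 1.78 FPKM are uncertain.

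In the death receptor route the adaptor and the initiator caspase stood lower in NEC tissue while 2 of the 3 receptors were called in neither genotype. Fadd, the adaptor that joins receptor and caspase (chromosome 7, 144577318 to 144582463), had 3.94, 4.20 and 5.63 FPKM in CKO NEC tissue against 8.78, 8.14 and 7.33 FPKM in CKO control tissue. Flox NEC libraries had 3.92, 4.36 and 4.22 FPKM, against 5.62, 5.48 and 5.03 FPKM in flox control tissue. The NEC libraries lay under the control libraries in both genotypes, and CKO control tissue was highest. Fadd fell by 0.71 ± 0.12 SE in CKO (adjusted p = 0.000941), a call kept in all 24 alternatives. In flox it fell by 0.30 ± 0.12 SE (adjusted p = 0.0495), close to the threshold, and that call was kept in 8 of 24 alternatives, with adjusted p of up to 0.226. It was lost without any one of the flox NEC replicates (-0.27, -0.33 and -0.31), the flox control replicates (-0.28, -0.29 and -0.34), CKO NEC replicate 2, or CKO control replicates 1 or 2 (-0.30 each). It was also lost in 7 alternatives that kept all libraries, such as the deposited values (-0.18) and limma-voom (-0.37).

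Casp8 had 29.5, 37.0 and 40.9 FPKM in CKO NEC tissue against 50.6, 57.8 and 84.9 FPKM in CKO control tissue. The flox NEC libraries stood at 32.4, 30.5 and 30.1 FPKM, against 58.3, 46.6 and 95.9 FPKM in flox control tissue. No NEC library reached a control library, and the 3rd control library of each genotype was the highest. Casp8 fell by 0.81 ± 0.25 SE in CKO (adjusted p = 0.0238) and by 1.02 ± 0.25 SE in flox (adjusted p = 0.00543). The flox call was kept in all 24 alternatives. The CKO call was lost with no filter, on the deposited values (-0.67), with quantile normalization (-0.46), with the scaling without mitochondrial genes (-0.52), and without CKO NEC replicate 1 (-0.68) or CKO control replicate 3 (-0.59).

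Of the receptors, Fas averaged 3.97 ± 0.517 FPKM in CKO NEC tissue against 7.18 ± 2.17 FPKM in CKO control tissue and fell by 0.69 ± 0.21 SE (adjusted p = 0.0216). This call was lost without CKO NEC replicate 1 (-0.70), CKO NEC replicate 3 (-0.61) or CKO control replicate 3 (-0.48), with no filter and with the scaling without mitochondrial genes (-0.44). In flox Fas averaged 4.13 ± 0.587 FPKM in NEC tissue against 6.28 ± 2.05 FPKM in control tissue (-0.47 ± 0.21 SE, adjusted p = 0.0784). Tnfrsf1a, the main TNF receptor, changed by -0.10 ± 0.19 SE in CKO and 0.12 ± 0.19 SE in flox, and Tnfrsf10b, the mouse TRAIL receptor, by -0.01 ± 0.13 SE and -0.19 ± 0.13 SE. Cflar, the gene of cFLIP, which holds caspase-8 in check, averaged 5.24 ± 0.683 FPKM in CKO NEC tissue against 6.34 ± 0.571 FPKM in CKO control tissue, and 5.41 ± 0.189 FPKM in flox NEC tissue against 4.60 ± 0.726 FPKM in flox control tissue. Neither change was called (-0.24 ± 0.12 SE in CKO, adjusted p = 0.130, and 0.20 ± 0.12 SE in flox, adjusted p = 0.171).

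The necroptosis genes parted: the kinase Ripk3 stood higher in NEC tissue and the executioner Mlkl lower. Ripk3, which phosphorylates MLKL (chromosome 14, 55784995 to 55788865, minus strand, GRCm38), had 19.1, 16.1 and 14.6 FPKM in CKO NEC tissue against 8.06, 8.03 and 6.16 FPKM in CKO control tissue. In flox the NEC libraries had 11.8, 14.9 and 11.2 FPKM, against 9.83, 9.42 and 7.05 FPKM in flox control tissue. All NEC libraries stood above all control libraries. Ripk3 rose by 1.07 ± 0.16 SE in CKO (adjusted p = 0.000496), a call kept in all 24 alternatives. It rose by 0.48 ± 0.16 SE in flox (adjusted p = 0.0239), a call lost without flox NEC replicate 2 (0.37) or flox control replicate 3 (0.35).

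Mlkl had 2.78, 4.12 and 1.93 FPKM in CKO NEC tissue against 4.78, 3.39 and 5.46 FPKM in CKO control tissue. Flox NEC libraries had 1.85, 2.33 and 2.19 FPKM, against 3.75, 3.81 and 3.69 FPKM in flox control tissue. The CKO groups overlapped through CKO NEC replicate 2, and the flox groups did not, at 65 to 179 reads a library. Mlkl fell by 0.61 ± 0.19 SE in flox (adjusted p = 0.0199), a call lost on the deposited values (-0.50) and without flox NEC replicate 1 (-0.54). In CKO its change was -0.51 ± 0.19 SE (adjusted p = 0.0504). Ripk1, the kinase at the fork between survival and death, had 6.25, 8.34 and 9.23 FPKM in CKO NEC tissue against 8.61, 11.1 and 9.91 FPKM in CKO control tissue, and 7.72, 8.76 and 8.38 FPKM in flox NEC tissue against 6.38, 6.51 and 7.32 FPKM in flox control tissue. The CKO groups overlapped and the flox NEC libraries stood above the flox control ones. Neither change was called (-0.29 ± 0.14 SE in CKO, adjusted p = 0.106, and 0.26 ± 0.14 SE in flox, adjusted p = 0.121). Ripk1 overlaps the far more abundant Serpinb6a on the opposite strand over 432 bases, so some of its reads cannot be told apart.

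Ratios of Ripk3 to Casp8 and to Mlkl restate the levels above within each library, without its scale factor. Ripk3 over Casp8 was 0.646, 0.436 and 0.357 in CKO NEC libraries, 0.364, 0.488 and 0.372 in flox NEC libraries, 0.159, 0.139 and 0.0726 in CKO control libraries, and 0.168, 0.202 and 0.0736 in flox control libraries. Every NEC library stood above every control library. The mean ratio in NEC tissue was 3.88 times that in control tissue in CKO and 2.76 times in flox. Ripk3 over Mlkl averaged 6.13 ± 1.95 in CKO NEC, 5.95 ± 0.735 in flox NEC, 1.73 ± 0.621 in CKO control and 2.33 ± 0.374 in flox control libraries (SD, n = 3). Both ratios were chosen after the values were seen and carry no test.

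**Figure D3:**
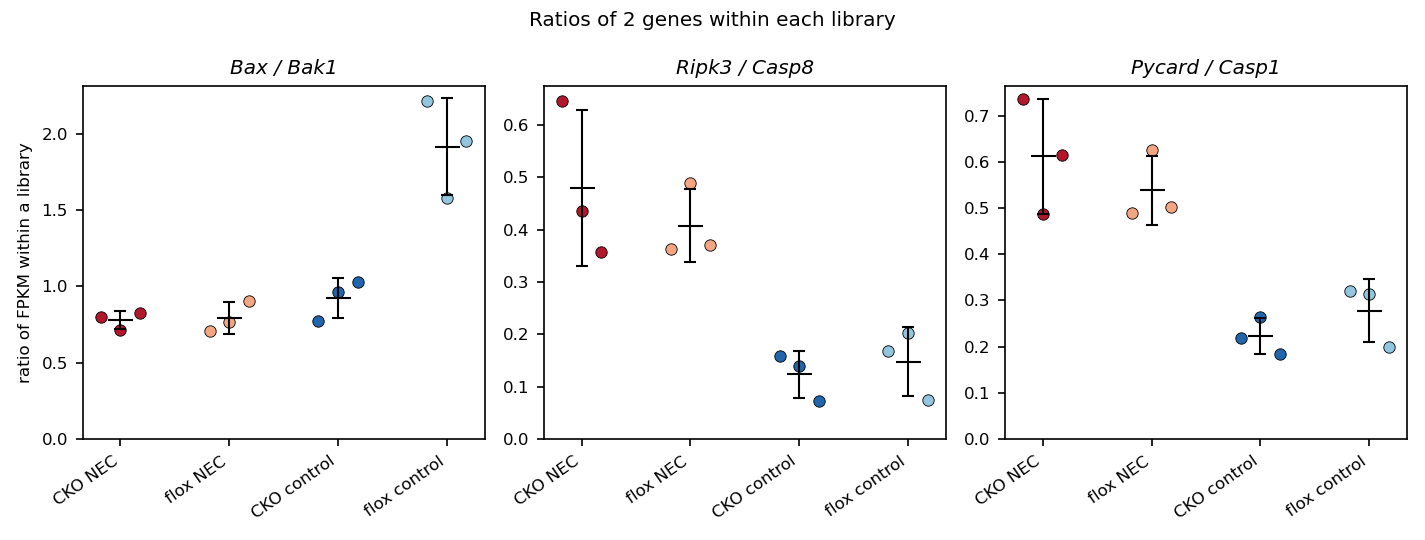
Ratios of FPKM of 2 genes within each library (vertical axes, from 0) in the 4 groups. Points are libraries, the long bar is the mean and the whiskers are 1 SD (n = 3). Bax over Bak1 is 1.58 to 2.21 in flox control libraries and at most 1.03 elsewhere, and the other 2 ratios are higher in all 6 NEC libraries than in any control library.

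In the pyroptosis route the largest changes that passed the test were those of Casp1 and Gsdmd, in both genotypes. Casp1, the inflammasome protease (chromosome 9, 5298517 to 5307265, plus strand, GRCm38), had 36.5, 51.2 and 48.98 FPKM in CKO NEC tissue against 87.7, 99.9 and 112.5 FPKM in CKO control tissue. The flox NEC libraries stood at 36.03, 35.99 and 37.3 FPKM, against 101.7, 90.2 and 131.1 FPKM in flox control tissue. The highest NEC library was far below the lowest control library, and the flox NEC libraries were nearly equal. Casp1 fell by 1.13 ± 0.17 SE in CKO (adjusted p = 0.000483) and by 1.52 ± 0.17 SE in flox (adjusted p = 3.63e-05).

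Gsdmd, whose product forms the pyroptotic pore (chromosome 15, 75862327 to 75867408, GRCm38), had 33.96, 51.8 and 39.9 FPKM in CKO NEC tissue against 68.4, 75.9 and 135.9 FPKM in CKO control tissue. In flox the NEC libraries had 21.8, 39.8 and 26.2 FPKM, against 86.3, 90.1 and 119.4 FPKM in flox control tissue. Again the groups did not overlap, though CKO control replicate 3 stood well above its group. Gsdmd fell by 1.09 ± 0.28 SE in CKO (adjusted p = 0.00984) and by 1.75 ± 0.28 SE in flox (adjusted p = 0.000408). All 4 calls on Casp1 and Gsdmd were kept in each of 24 alternatives. Gsdmd over Casp1 averaged 0.919 ± 0.0999, 0.804 ± 0.265, 0.916 ± 0.254 and 0.919 ± 0.0758 in CKO NEC, flox NEC, CKO control and flox control libraries, with all groups overlapping.

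Casp4, the mouse sensor of cytosolic lipopolysaccharide (caspase-11), averaged 6.28 ± 1.89 FPKM in CKO NEC tissue against 8.64 ± 1.011 FPKM in CKO control tissue, and 5.28 ± 0.371 FPKM in flox NEC tissue against 10.6 ± 2.48 FPKM in flox control tissue. It fell by 0.87 ± 0.20 SE in flox (adjusted p = 0.00367), and its CKO change was -0.44 ± 0.20 SE (adjusted p = 0.0993). Pycard, the adaptor ASC that links sensor and caspase-1, had 26.8, 24.9 and 30.1 FPKM in CKO NEC tissue against 19.3, 26.4 and 20.8 FPKM in CKO control tissue. Flox NEC libraries had 17.6, 22.5 and 18.7 FPKM, against 32.5, 28.2 and 26.02 FPKM in flox control tissue. The CKO groups overlapped and the flox groups did not. Pycard fell by 0.54 ± 0.14 SE in flox (adjusted p = 0.00843) and changed by 0.30 ± 0.14 SE in CKO (adjusted p = 0.119). Pycard over Casp1 averaged 0.612 ± 0.124 in CKO NEC and 0.539 ± 0.0750 in flox NEC libraries. It averaged 0.223 ± 0.0397 in CKO control and 0.277 ± 0.0681 in flox control libraries, with no overlap between NEC and control. This ratio restates the levels of 2 genes already given and carries no test.

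Aim2 and Nlrp6 had positive estimates in both genotypes. Aim2, a sensor of cytosolic DNA, averaged 3.56 ± 0.874 FPKM in CKO NEC tissue against 2.24 ± 0.692 FPKM in CKO control tissue, and 4.82 ± 0.460 FPKM in flox NEC tissue against 2.22 ± 0.626 FPKM in flox control tissue. It rose by 0.87 ± 0.20 SE in flox (adjusted p = 0.00322), and its CKO change was 0.50 ± 0.20 SE (adjusted p = 0.0616). Aim2 shares 16817 bases of its locus with Cadm3 on the opposite strand. Nlrp6, a sensor of the intestinal epithelium, averaged 19.98 ± 4.78 FPKM in CKO NEC tissue against 14.7 ± 1.20 FPKM in CKO control tissue, and 14.3 ± 0.784 FPKM in flox NEC tissue against 13.1 ± 2.29 FPKM in flox control tissue. It was called in neither genotype (0.40 ± 0.16 SE in CKO, adjusted p = 0.0660, and 0.13 ± 0.16 SE in flox, adjusted p = 0.527).

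Bax, Casp1 and Ripk3 were each called in both genotypes, the first 2 lower and Ripk3 higher, and their promoters are shown to set these opposite changes beside their sequence. The 250 bases before each start are from RefSeq on GRCm38.p6, written 5′ to 3′ on the strand of the gene. Bax is at chr7:45466899-45467148 on the minus strand, Casp1 at chr9:5298267-5298516 on the plus strand and Ripk3 at chr14:55788858-55789107 on the minus strand. Capitals mark the E-box CACGTG in all 3 and, in Bax, a single 10-base p53 half-site.
Bax: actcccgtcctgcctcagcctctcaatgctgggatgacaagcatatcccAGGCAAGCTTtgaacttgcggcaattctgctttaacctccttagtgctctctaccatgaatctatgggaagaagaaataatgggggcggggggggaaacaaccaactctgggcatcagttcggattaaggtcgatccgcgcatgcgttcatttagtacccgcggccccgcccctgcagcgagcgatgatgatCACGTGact
Casp1: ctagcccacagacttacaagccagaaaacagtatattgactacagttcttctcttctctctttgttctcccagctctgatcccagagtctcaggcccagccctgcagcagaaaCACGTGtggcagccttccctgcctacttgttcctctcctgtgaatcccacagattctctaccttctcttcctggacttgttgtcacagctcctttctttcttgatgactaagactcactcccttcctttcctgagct
Ripk3: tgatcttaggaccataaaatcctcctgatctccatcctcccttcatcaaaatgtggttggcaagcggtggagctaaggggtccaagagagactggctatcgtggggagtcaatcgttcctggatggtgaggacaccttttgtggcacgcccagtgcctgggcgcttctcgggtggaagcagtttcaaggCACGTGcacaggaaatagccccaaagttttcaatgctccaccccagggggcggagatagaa

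The E-box lay at -9 to -4 in Bax, -137 to -132 in Casp1 and -61 to -56 in Ripk3, counted from the base before the start as -1. It was chosen as a motif after these sequences had been read. Of 29 members with a promoter in the RefSeq table, 5 held it (Bax, Bbc3, Fas, Ripk3 and Casp1), where 6.02% of 32851 promoters do. All searches covered both strands. For every motif members were counted by gene, if any promoter of the gene held it, and the shares by single promoter. Counts and shares are thus not the same measure. The interferon motif (GAAA, any 2 bases, GAAA) was in 0 of 29 and in 2.98% of all promoters. TTCNNNGAA, the STAT motif, was in 3 of 29 (Fas, Tnfrsf1a and Ripk1) and in 7.02% of all promoters. A p53 half-site was in 1 of 29 (Bax, at -201 to -192) and in 7.13% of all promoters. Full p53 sites were not searched for. These matches describe the letters in these windows only, and genes that fell and a gene that rose share the E-box.

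The gasdermin C genes stood apart by library rather than by group. They lie side by side on chromosome 15 and encode pore-forming proteins of the intestinal epithelium. Gsdmc2 had 7.48, 1.76 and 2.20 FPKM in CKO NEC tissue and 3.37, 1.19 and 1.04 FPKM in flox NEC tissue, against 1.07, 1.96 and 0.941 FPKM in CKO control and 2.44, 2.41 and 0.452 FPKM in flox control tissue. Gsdmc3 had 3.70, 1.09 and 1.46 FPKM in CKO NEC tissue and 1.24, 0.886 and 0.918 FPKM in flox NEC tissue, against 0.837, 1.32 and 0.543 FPKM in CKO control and 1.83, 2.43 and 0.449 FPKM in flox control tissue. Gsdmc4 had 9.77, 2.18 and 3.40 FPKM in CKO NEC tissue and 3.74, 1.497 and 2.98 FPKM in flox NEC tissue, against 1.26, 1.97 and 0.943 FPKM in CKO control and 1.31, 2.48 and 0.367 FPKM in flox control tissue. CKO NEC replicate 1 was the highest library for all 3 genes and flox control replicate 3 the lowest. NEC and control groups overlapped for all 3 genes but Gsdmc4 in CKO. None was called, with changes of 0.88 ± 0.47, 0.62 ± 0.34 and 1.18 ± 0.45 SE in CKO (adjusted p of 0.147, 0.165 and 0.0518) and 0.06 ± 0.47, -0.26 ± 0.34 and 0.70 ± 0.45 SE in flox (adjusted p of 0.919, 0.538 and 0.205).

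Markers of gut position also differed between libraries of 1 group. Gata4 and Fabp1, which mark the upper small intestine, summed to 589.7 FPKM in CKO NEC replicate 1, against 2.60 and 7.25 FPKM in the other CKO NEC libraries, and to 1.43 FPKM in flox control replicate 3, against 326.4 and 790.7 FPKM in the other flox control libraries. The sum of Gata4 and Fabp1 was 338.3, 271.1 and 119.6 FPKM in CKO control libraries and 39.98, 146.4 and 17.8 FPKM in flox NEC libraries. Fabp6 and Slc10a2, markers of the ileum, summed to 497.7 FPKM in flox control replicate 3, against 45.3 and 28.5 FPKM in the other flox control libraries. In CKO NEC replicate 1 the ileum sum was 174.8 FPKM, between the 153.6 and 282.2 FPKM of the other CKO NEC libraries. The part of these differences in the gasdermin C values was not tested.

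**Figure D4:**
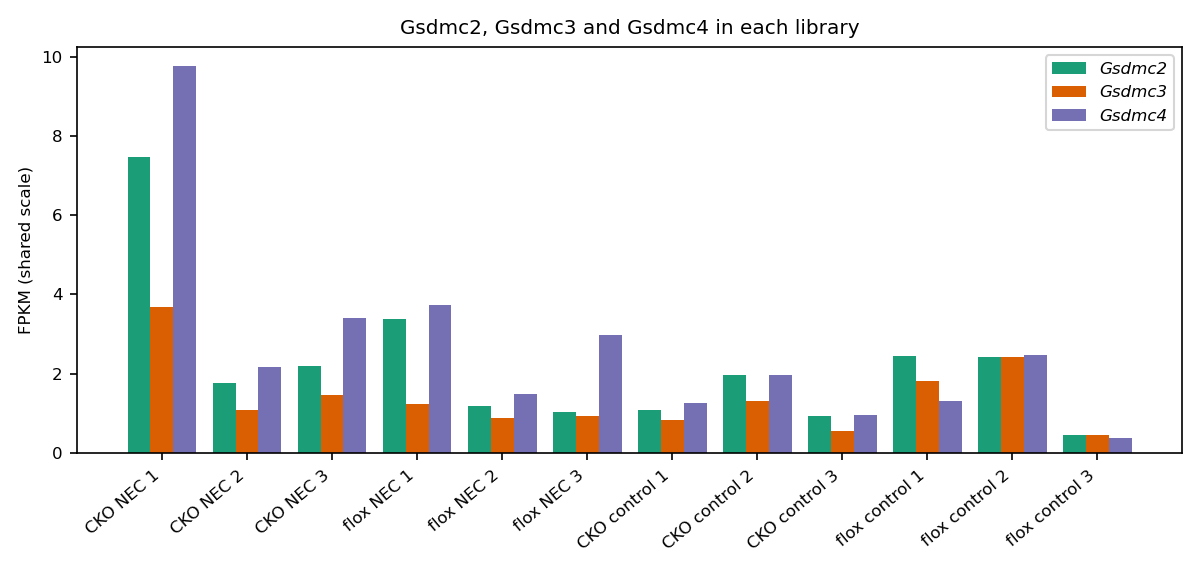
FPKM of Gsdmc2, Gsdmc3 and Gsdmc4 on the shared scale (vertical axis, from 0) in each of the 12 libraries. Bars are single libraries. CKO NEC replicate 1 is highest for all 3 genes (7.48, 3.70 and 9.77 FPKM) and flox control replicate 3 is lowest (0.452, 0.449 and 0.367 FPKM).

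These 3 genes are near copies, so reads may have been split between them by a counting method the sources used here do not give. The first 120 coding bases of each are shown because they differ at 2 positions, marked by capitals in all 3. They are from GENCODE M21 on GRCm38, chromosome 15, minus strand, with the first base of the start codon at 63835943 in Gsdmc2, 63869297 in Gsdmc3 and 63902930 in Gsdmc4.
Gsdmc2: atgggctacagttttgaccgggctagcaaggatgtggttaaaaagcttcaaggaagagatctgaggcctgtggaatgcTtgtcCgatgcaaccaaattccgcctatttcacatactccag
Gsdmc3: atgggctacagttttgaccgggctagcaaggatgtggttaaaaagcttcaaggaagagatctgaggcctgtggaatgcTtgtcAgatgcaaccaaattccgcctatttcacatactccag
Gsdmc4: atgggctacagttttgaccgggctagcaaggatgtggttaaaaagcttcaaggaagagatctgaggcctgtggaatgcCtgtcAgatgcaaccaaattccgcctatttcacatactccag

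Over 1440 coding bases each, Gsdmc2 and Gsdmc3 were 97.1% identical, Gsdmc2 and Gsdmc4 92.9%, and Gsdmc3 and Gsdmc4 93%. Of all stretches of 50 bases in the transcript, 51.3% in Gsdmc2, 46% in Gsdmc3 and 39% in Gsdmc4 also occurred in another Gsdmc gene. With counts as low as 11 reads in a library, the values of the single genes are uncertain.

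The second question was what went with the CKO genotype in NEC tissue. None of the 34 members was called, and neither was any of the 13351 genes tested (0%). At an unadjusted p under 0.05 there were 587 genes in all and 6 members, and limma-voom on recovered reads called 0. The members' median was 0.14, beside 0.02 over all genes, with 24 positive and 10 negative. Groups did not overlap for 5 members, 4 higher in CKO (Bak1, Bid, Nlrp6 and Pycard) and 1 lower (Bcl2), where 10.8% of all genes did not overlap (5.32% higher, 5.5% lower).

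Pycard was at 27.3 ± 2.63 FPKM in CKO NEC tissue against 19.6 ± 2.56 FPKM in flox NEC tissue (log2 change of 0.46 ± 0.13 SE, 95% interval of 0.15 to 0.77, adjusted p = 0.847). Bid was at 7.997 ± 1.82 FPKM in CKO against 5.39 ± 0.530 FPKM in flox (0.48 ± 0.16 SE). Ripk3 was at 16.6 ± 2.27 FPKM in CKO against 12.6 ± 1.98 FPKM in flox (0.37 ± 0.15 SE), with overlapping libraries. The adjusted p was 0.847 for Bid and Ripk3 as well. Casp1 was at 45.6 ± 7.91 FPKM in CKO against 36.4 ± 0.726 FPKM in flox, and Gsdmd at 41.9 ± 9.10 FPKM against 29.2 ± 9.35 FPKM, each with overlap. All 4 gasdermins had positive estimates, 0.52 to 0.65, with standard errors of 0.24 to 0.47. The smooth muscle sum was 494.5 to 1947 FPKM in CKO NEC libraries, lowest in replicate 3, against 1721 to 2713 FPKM in flox NEC libraries, and its part was not tested.

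**Figure D5:**
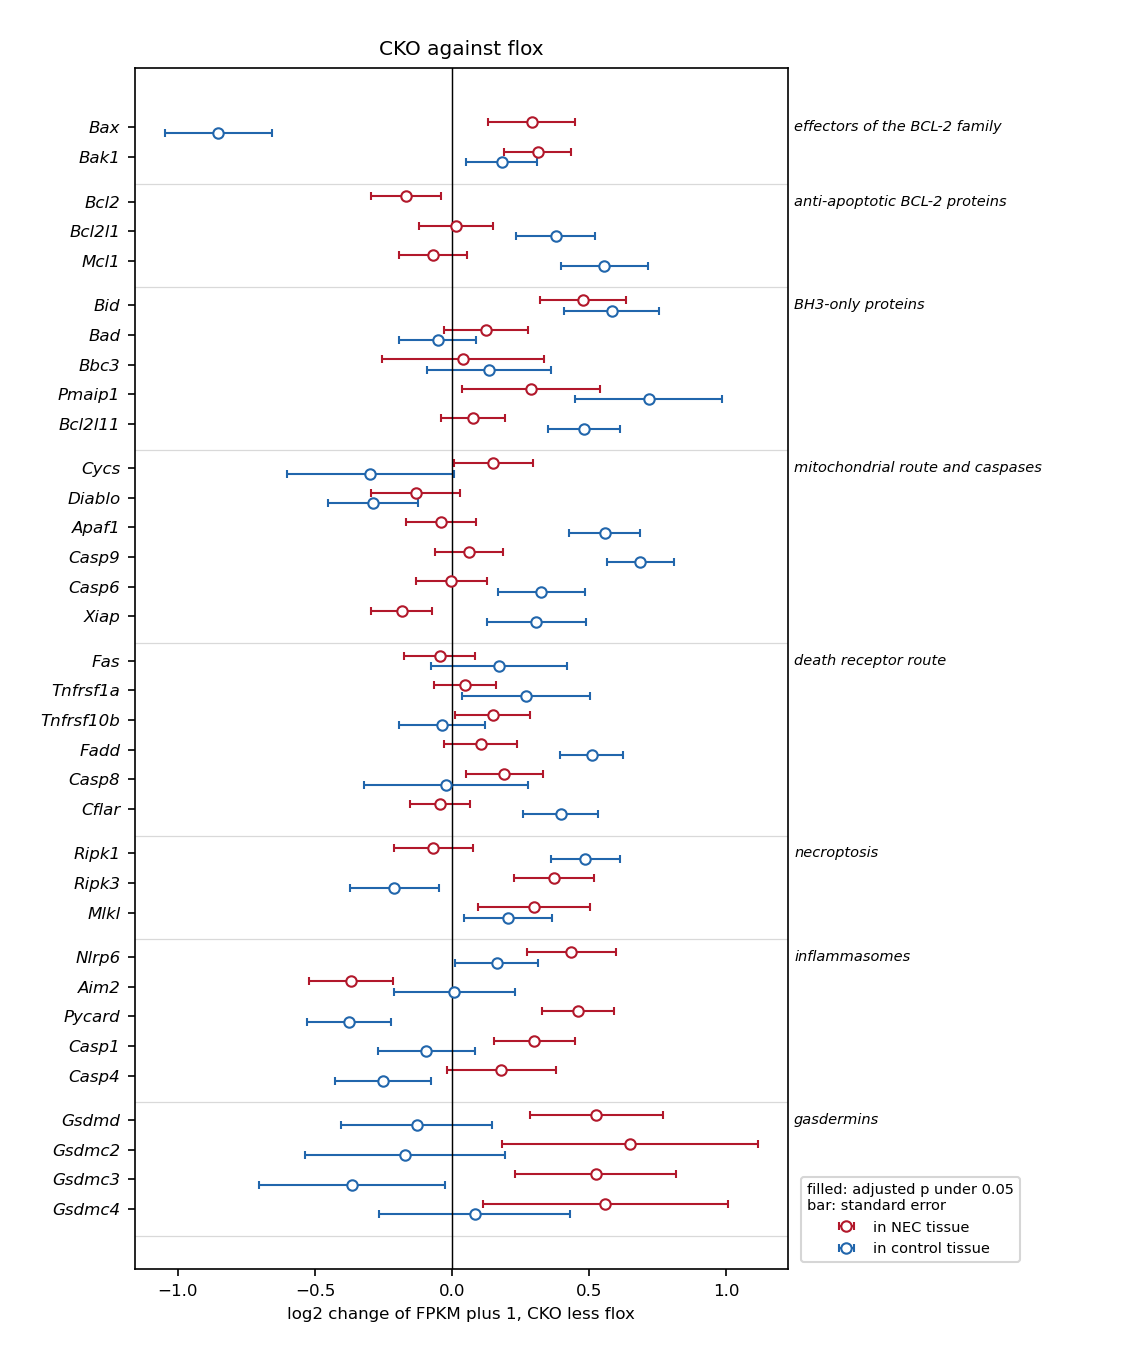
Log2 change of FPKM + 1 in CKO less flox tissue (horizontal axis) for the 34 genes by route, with NEC tissue above control tissue for each gene. Points are limma estimates and bars are standard errors, and no point is filled because no member had an adjusted p under 0.05. In control tissue Bax lies farthest to the left (-0.85), and Bcl2 was not tested there.

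The third question was the same comparison without injury. In control tissue 33 of the 34 members could be tested, since Bcl2 did not reach 1 FPKM in 3 of these libraries. None was called, and 1 of 13310 genes was (0.00751%). However, 3849 genes, 28.9% of those tested, had an unadjusted p under 0.05, and 12 members did. The members' median was 0.16, beside 0.04 over all genes, with 20 positive and 13 negative. Groups did not overlap for 9 members that stood higher in CKO and for 1 that stood lower, where 34.6% of all genes did not overlap (21.8% higher, 12.7% lower).

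The member that stood lower was Bax, at 47.4 ± 9.66 FPKM in CKO against 86.2 ± 15.2 FPKM in flox control tissue (-0.85 ± 0.20 SE, 95% interval of -1.31 to -0.39, adjusted p = 0.0639). Casp9 stood at 10.1 ± 1.17 FPKM in CKO against 5.86 ± 0.346 FPKM in flox (0.69 ± 0.12 SE, adjusted p = 0.0546). Fadd stood at 8.08 ± 0.727 FPKM in CKO against 5.38 ± 0.304 FPKM in flox (0.51 ± 0.11 SE, adjusted p = 0.0623), and Apaf1 at 9.15 ± 1.13 FPKM against 5.89 ± 0.545 FPKM (0.56 ± 0.13 SE, adjusted p = 0.0651). Mcl1, Bid, Bcl2l11, Bcl2l1, Cflar and Ripk1 were the other members above flox in every library, with changes of 0.38 to 0.58. Casp1 (-0.09 ± 0.18 SE), Gsdmd (-0.13 ± 0.27 SE) and Casp8 (-0.02 ± 0.30 SE) had changes smaller than their standard errors.

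The number of calls in control tissue depended on the fit. In 1 fit of all 12 libraries 9 members passed, with array weights 8, with a mean FPKM of at least 5 as the filter 4 and with limma-voom 3. Over all genes the same fits called 2090, 2205, 773 and 733. Bax, Apaf1 and Casp9 passed in all 4 of these fits. Without flox control replicate 3, Casp9 (0.70) and Mcl1 (0.68) passed and 825 genes did in all. The mitochondrial share of reads was lower in every CKO control library than in any flox control library, as given above. The smooth muscle sum was 178.6 to 564.7 FPKM in CKO against 646.8 to 825.2 FPKM in flox control libraries. The epithelial sum was 2895 to 3438 FPKM in CKO against 2229 to 2842 FPKM in flox control libraries. The part of any of these in the control result was not tested. Bax over Bak1, the ratio chosen after its values were seen, averaged 0.922 ± 0.133 in CKO against 1.92 ± 0.319 in flox control libraries. It is free of a library's scale factor only, and the part of cell makeup in it was not tested.

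Whether the genotype difference itself differed between conditions was tested as an interaction, the difference in NEC less that in control. None of the 34 members was called, beside 113 of 14609 genes (0.773%, with 0.144% positive and 0.63% negative). An unadjusted p under 0.05 was found for 11 members and for 3027 of all genes tested (20.7%). Bax had an interaction of 1.14 ± 0.26 SE (95% interval of 0.56 to 1.72, adjusted p = 0.0630), from genotype changes of 0.29 in NEC tissue and -0.85 in control tissue. Pycard had one of 0.84 ± 0.20 SE (adjusted p = 0.0664), from 0.46 in NEC tissue and -0.38 in control tissue. Casp9 had one of -0.63 ± 0.17 SE (adjusted p = 0.0819), Mcl1 one of -0.63 ± 0.20 SE (adjusted p = 0.111) and Apaf1 one of -0.60 ± 0.18 SE (adjusted p = 0.101). Bax passed with a stricter filter, quantile normalization, the scaling without mitochondrial genes, array weights and without CKO control replicate 3 (1.30). Pycard passed with the first 4 of these and without flox control replicate 3 (0.91). At the threshold used, a call in 1 genotype or condition and none in the other is therefore not shown to be a difference between them for any member.

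Of 55 other genes of the death routes that the tables hold, 40 could be tested between NEC and control. In CKO 20 were called, 3 higher and 17 lower, and in flox 21 were called, 2 higher and 19 lower, shares of 50% and 52.5% beside the 43.1% and 53.6% of all genes. Nlrp9b, an epithelial inflammasome sensor of viral RNA, averaged 6.14 ± 1.63 FPKM in CKO NEC and 3.98 ± 0.0493 FPKM in flox NEC tissue, against 18.4 ± 6.64 FPKM in CKO control and 31.9 ± 5.89 FPKM in flox control tissue. It fell by 1.42 ± 0.24 SE in CKO (adjusted p = 0.000873) and by 2.71 ± 0.24 SE in flox (adjusted p = 1.04e-05). Naip5 and Naip1, sensors of bacterial flagellin and secretion needles, fell by 1.12 and 0.97 in CKO and by 1.81 and 0.46 in flox, and the Naip genes are near copies whose reads may be split. Ninj1, which ruptures the membrane of dying cells, fell by 0.95 and 0.67 in CKO and flox, and Tnfsf10, the gene of TRAIL, by 1.12 and 0.89. For Tnfsf10 the CKO groups overlapped, at 2.13, 8.40 and 2.85 FPKM in NEC tissue against 11.3, 10.8 and 7.11 FPKM in control tissue. Parp1, a DNA repair enzyme that caspases cut, rose by 1.04 and 0.76. None of these other genes was called between genotypes (0 of 37 in NEC tissue, 0 of 39 in control tissue) or in the interaction (0 of 40).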

How the data were processed

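Per the labels' protocols, RNA was isolated with Trizol and a NEBNext Ultra II kit was used for the libraries. The authors deposited FPKM values in 2 tables, 1 for each condition, with 6 libraries each. Aligner, counter, strand setting and build were not given in the sources used here. Of 54409 matched genes, 98.33% had the coordinates of GENCODE M21 on GRCm38. FPKM times gene length gave whole multiples of 1 step per library (100% of values within a tolerance of 0.05), and so the reads per gene. The deposited NEC values lay on average 0.14 log2 above a scale shared by both tables, so FPKM were rebuilt from the reads with median-of-ratios factors over all 12 libraries.

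Genes that reached 1 FPKM in 3 or more of the libraries fitted were tested on log2(FPKM + 1) with limma 3.58.1 in R 4.3.3, with a variance trend, two-sided, adjusted by Benjamini-Hochberg at 0.05. Such fold changes understate those of low genes. Genotypes were compared in the 6 libraries of a condition. NEC was compared with control, and the interaction tested, in all 12. The tests were run on simulated data with 100 genes changed 2-fold, 100 changed 4-fold and 1 spread shared by all genes. Of the 2-fold changes, 96% to 99% were called between 2 groups and 70% in the interaction. The real conditions differ in far more genes, so these shares need not hold for them. Libraries that share a replicate number did not pair, so no block was used.

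The members, lists and tests were chosen with earlier results of these data known. Members called in both NEC comparisons with the largest changes (up to 4 a route), all necroptosis genes and all gasdermins are given by library. Pycard was added to these after its values were seen. Some genes that the naming rule covers are not reported here. Alternatives were the pseudocount (0.1), no filter and a mean FPKM of at least 5, deposited values and 3 other scalings, limma-voom on reads, no variance trend, array weights, the libraries in the fit, the replicate block and leaving out each library in turn. Sequences came from RefSeq and GENCODE, read with Biopython 1.88, and figures were drawn with matplotlib 3.10.9.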

Additional observations from a re-analysis of the deposited data

Results flagged for a closer look

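Casp9, the initiator caspase of the mitochondrial route, had NEC libraries all under the control libraries in CKO and all above them in flox, although the flox change was not called (0.20 ± 0.12 SE, adjusted p = 0.172). It had 6.17, 7.16 and 8.53 FPKM in CKO NEC libraries, all under the 9.94, 11.3 and 8.96 FPKM of CKO control libraries. In flox it had 6.70, 7.30 and 6.68 FPKM in NEC libraries, all above the 5.46, 6.08 and 6.03 FPKM of control libraries. The test of the difference, the interaction, gave -0.63 ± 0.17 SE and did not pass over all genes (limma, adjusted p = 0.0819). It passed with array weights (-0.68, adjusted p = 0.0325).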

How the results depend on the processing

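The calls were most stable for Fadd, Ripk3, Casp1 and Gsdmd in CKO and for 12 members in flox, which passed in every alternative run for the comparison of NEC with control. No call on a member reversed, and of 762 values of single members under alternatives, 672 stayed past the threshold and 90 did not. In CKO the count of 14 fell to 9 with the scaling without mitochondrial genes and ranged from 7 to 16 when 1 library was left out. In flox the count of 18 ranged from 13 to 19 when 1 library was left out, and was 20 with quantile normalization and 21 with array weights. Between genotypes in NEC tissue the count was 0 throughout, with 0 to 1 of all genes without 1 library. Between genotypes in control tissue the count of 0 became 4 with the stricter filter, 3 with limma-voom, 8 with array weights and 9 in 1 fit of all libraries, and 0 to 2 without 1 library (0 to 825 of all genes). The interaction count of 0 became 2 with the stricter filter, 2 with quantile normalization, 2 with the scaling without mitochondrial genes and 4 with array weights, and 0 to 1 without 1 library. Over all genes its 113 became 897 with array weights, 3 with no variance trend and 6 with no filter. The cause of these shifts was not tested.

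Replicate numbers did not pair the libraries: 18 same-number pairs had correlations of -0.124 to 0.359, and 8 were over 0.1. With the replicate block the members called were 0 and 6 between genotypes in NEC and control tissue (0 and 911 of all genes), 17 and 16 between NEC and control in CKO and flox, and 1 in the interaction (Bax). Genes with few reads, the Gsdmc genes above all, limit what can be seen at this depth.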
